A study of Caenorhabditis elegans with 3 samples.

Results

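The gene mxl-3 (WBGene00003511) encodes a Max-like transcription factor of Caenorhabditis elegans, and regions bound by tagged MML-1 at and upstream of it are described here. They were chosen by position and by the authors' lists: every region with its summit on chromosome X between 13340000 and 13370000 in the ce11 build was taken. In this 30 kb window lay 5 of the 195 peaks that the authors called reproducible and 26 of the 30000 regions of their pooled list, which holds peaks together with background. Of all pooled regions 0.65% were in the reproducible list, and of the 26 in the window 5 were. The lists of replicates 1, 2 and 3 had 27 of 30000, 26 of 30000 and 18 of 27021 regions there. All 5 peaks lay between mxl-3 and the next gene upstream, C49F8.15, and the 3 highest were 2852, 7983 and 9291 bp upstream of the mxl-3 start. The peak at the promoter itself was lower and had no E-box CACGTG, the hexamer bound by this protein family.

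The samples are 3 biological replicates of whole L3 larvae, labelled as pooled males and females, and there is no second condition. All carry the same genotype, strain OP198, unc-119(ed3) III; wgIs198, a mutation of unc-119 with the transgene wgIs198. The transgene makes MML-1 joined at its C-terminal end to GFP and FLAG. The labels list no change to the worms' own mml-1 gene and do not name the promoter of the transgene. The libraries mix all tissues of the larva. Replicates 1 and 2 have a fragment size range in their labels and came from the CGC, whereas replicate 3 has sonication as its label and came from the submitting laboratory. The signal of a region is the authors' value of the ChIP against a control library, on a scale of its own list, and rank 1 is the highest signal of a list. No list gives read totals, and sequencing depth is therefore unknown. Signal, rank and list membership chose the sites, so they are given as a description with no test.

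MML-1 is the worm Mondo protein, a basic helix-loop-helix leucine zipper factor that binds DNA with its partner MXL-2, a Max-like protein. MXL-3 belongs to the same wider Max family. In fed worms it is known to repress lysosomal lipase genes, and in fasted worms HLH-30, the worm TFEB, activates them. E-boxes of the form CANNTG are the known binding letters of these factors.

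The sequences show what the summits have in common and where they differ. Each run covers 40 bp to both sides of a pooled summit on the plus strand of WBcel235, the assembly of ce11, and capitals mark CACGTG. mxl-3 is on the minus strand, so higher coordinates lie farther upstream of its start. The first 3 lines are the high distal peaks, and the next are the promoter peak, the peak 5793 bp upstream and the promoter region just outside the reproducible list.
7983 bp upstream, chrX:13358747-13358827: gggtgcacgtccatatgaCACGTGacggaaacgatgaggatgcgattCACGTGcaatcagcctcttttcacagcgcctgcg
2852 bp upstream, chrX:13353616-13353696: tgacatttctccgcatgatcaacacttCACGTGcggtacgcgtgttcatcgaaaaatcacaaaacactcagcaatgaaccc
9291 bp upstream, chrX:13360055-13360135: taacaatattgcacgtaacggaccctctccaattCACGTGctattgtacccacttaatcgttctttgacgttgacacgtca
310 bp upstream, chrX:13351074-13351154: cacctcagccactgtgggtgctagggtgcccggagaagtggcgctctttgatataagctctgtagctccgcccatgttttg
5793 bp upstream, chrX:13356557-13356637: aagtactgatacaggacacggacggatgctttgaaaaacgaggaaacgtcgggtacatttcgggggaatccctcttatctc
673 bp upstream, chrX:13351437-13351517: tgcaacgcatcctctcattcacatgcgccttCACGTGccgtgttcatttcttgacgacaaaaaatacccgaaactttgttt

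The gene mxl-3 spans X, 13349639 to 13350804, and has 1 annotated transcript with 4 exons. Downstream of it, beyond 1513 bp, lies ptr-24 (WBGene00004238), a gene of the Patched-related family, at 13338028 to 13348125. Upstream, 10396 bp separate its start from the end of C49F8.15 (WBGene00304787), at 13361201 to 13362586, and C49F8.1 (WBGene00008213) follows at 13363328 to 13364997. Both of these are on the minus strand, as mxl-3 is. The 5 peaks spanned 8981 bp of the upstream gap from first to last summit, with 2542, 2941, 2190 and 1308 bp between neighbours. The start of mxl-3 was the nearest protein-coding start to the first 3 peaks, those 310, 2852 and 5793 bp upstream. The peaks 7983 and 9291 bp upstream were nearer to the start of C49F8.15, at 3799 and 2491 bp, and lay downstream of that gene by 2414 and 1106 bp. Which gene a distal peak acts on was not measured.

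**Figure D1:**
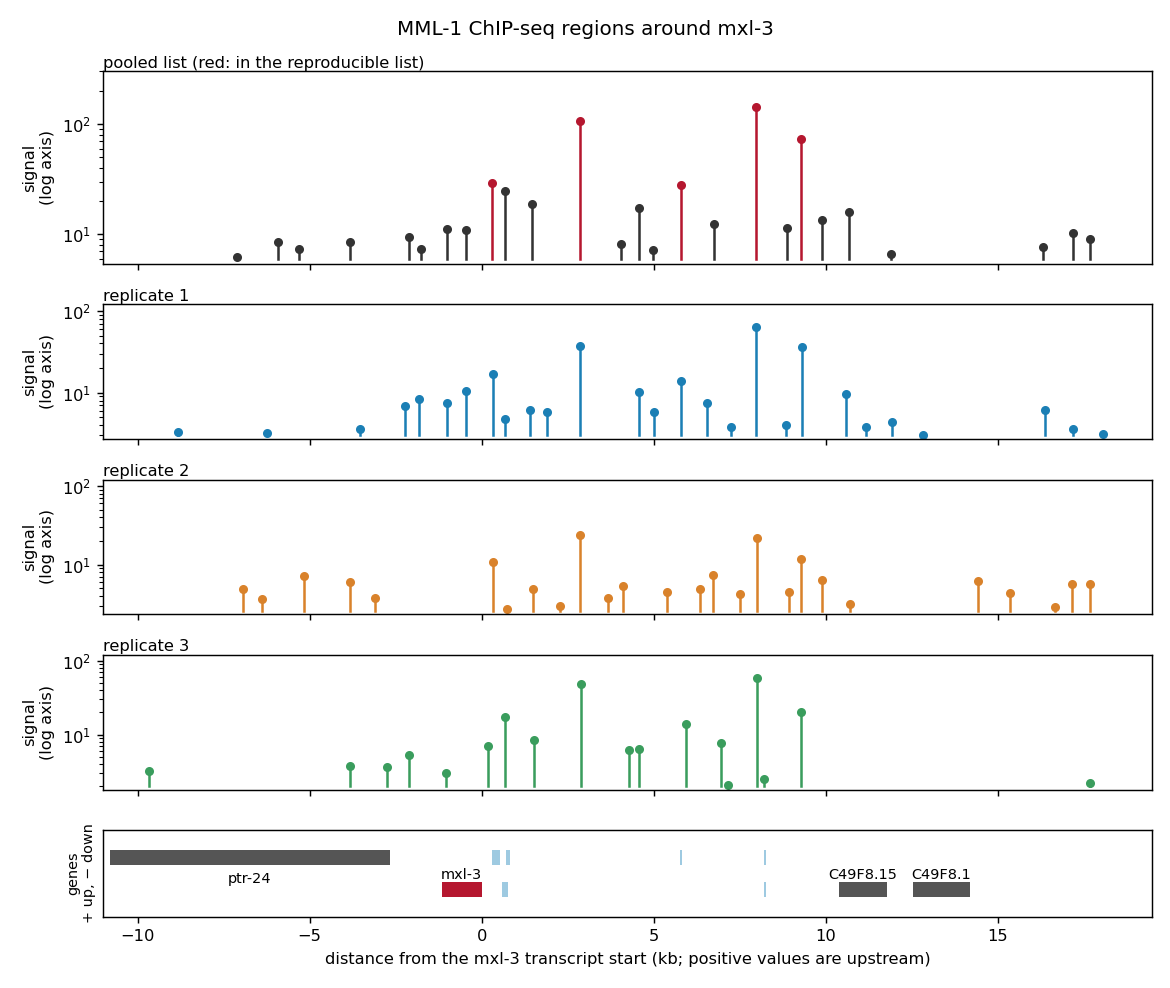
Signal of every listed region (log axis, lines start at the lowest signal of the list) against distance from the mxl-3 start in kb, for the pooled list and each replicate, with annotated genes below (dark, protein-coding; light blue, non-coding; red, mxl-3). The 5 reproducible peaks, in red in the pooled list, all lie in the 10396 bp upstream of mxl-3, and the highest have signals of 143, 107 and 73.8.

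The strongest site of the locus lay 7983 bp upstream, at X, 13358683 to 13358854, and ranked 21 in the pooled list with a signal of 143. Its signal was 63.4, 21.6 and 59.2 in replicates 1, 2 and 3, at ranks 22, 42 and 15. The pooled summit was 7 bp from the nearer of a pair of CACGTG copies, the only pair under a single summit in the window. In replicate 2 the summit fell on the copy itself. The replicate summits were 10, 10 and 22 bp from the pooled one. The nearest annotated non-coding RNA genes, both named C49F8.10 and placed on opposite strands at 13359013 to 13359073 (WBGene00199043 and WBGene00199596), were 226 bp from it.

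The site 2852 bp upstream, at X, 13353618 to 13353733, ranked 32 in the pooled list with a signal of 107. It had signals of 37.0, 23.6 and 48.8 in replicates 1, 2 and 3, at ranks 43, 31 and 20. In replicate 2 it was the highest region of the window, above the site 7983 bp upstream, whereas replicates 1 and 3 had the reverse order. Its single CACGTG was 8 bp from the pooled summit, and 22, 8 and 53 bp from the replicate summits.

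The site 9291 bp upstream, at X, 13359953 to 13360236, ranked 45 with a signal of 73.8. It had signals of 35.8, 11.9 and 20.1 in replicates 1, 2 and 3, at ranks 44, 107 and 71. Its CACGTG was 1 bp from the pooled summit, and in replicate 3 the summit fell on it. Of the 3 high distal sites it was the lowest in every replicate, and in replicate 1 it was close to the site 2852 bp upstream. All 3 distal sites ranked within the first 107 regions of each replicate.

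Regions of other than the standard width were rare in the pooled list, where 29961 regions were 284 bp wide and 39 were not. The sites 2852 and 7983 bp upstream, at 116 and 172 bp, were among those 39, and in replicate 1 the site 7983 bp upstream was 85 bp wide. All of those 39 were in the reproducible list, where the remaining 156 peaks were 284 bp wide.

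**Figure D2:**
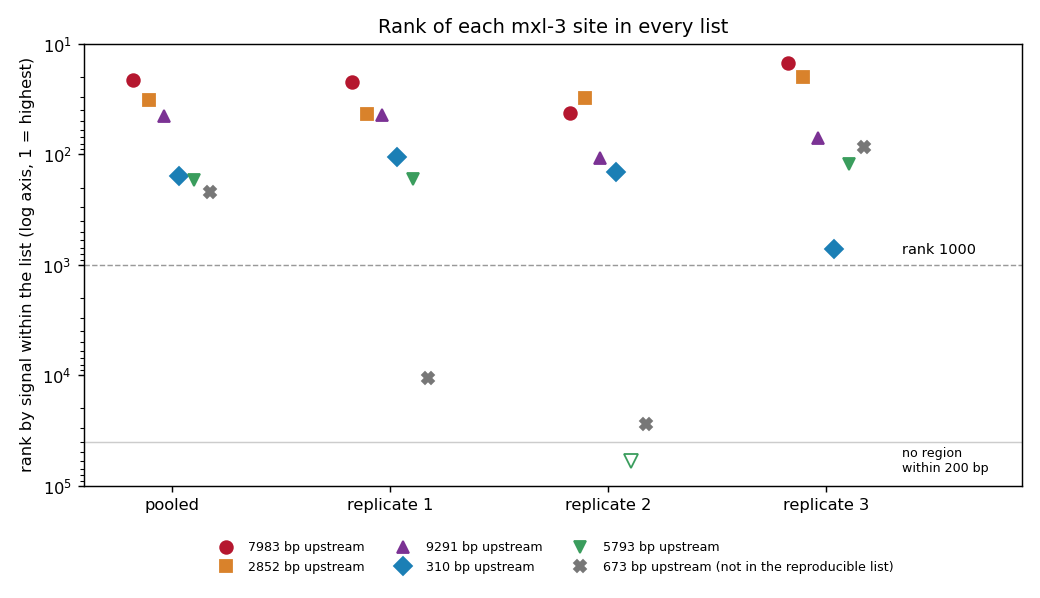
Rank by signal (log axis, highest at the top) of 6 mxl-3 sites in the pooled list and in each replicate; symbols are moved sideways within a list so that they do not hide each other. The sites 2852, 7983 and 9291 bp upstream stay within the first 107 regions of each list, the sites 310 and 673 bp upstream change places between replicates 1 and 2 and replicate 3, and the open symbol marks the site 5793 bp upstream, with no region within 200 bp in replicate 2.

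The promoter window, from 1000 bp before to 200 bp past the start, held 1 of the 5 peaks. Of all reproducible peaks 47.2% lay in the promoter window of a protein-coding gene. In the pooled list the mxl-3 window held a pair of regions whose order differed between replicates. The peak 310 bp upstream, at X, 13350972 to 13351255, ranked 157 with a signal of 29.3 and was in the reproducible list. The region 673 bp upstream, at X, 13351335 to 13351618, ranked 220 with a signal of 24.7 and was not. The lowest reproducible peak of the genome ranked 195 with a signal of 26.0, and the next region had 25.8. The pair thus lay on either side of the authors' threshold, and both had the highest −log10 q-value of the pooled list, 2.75, which 279 regions shared.

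The peak 310 bp upstream had signals of 17.0, 10.8 and 7.07 in replicates 1, 2 and 3, at ranks 106, 144 and 712. The region 673 bp upstream had signals of 4.81, 2.74 and 17.1, at ranks 10608, 27538 and 86. Replicates 1 and 2 therefore had their promoter maximum near 310 bp and replicate 3 near 673 bp. In replicate 3 the summit matched to the nearer peak was at 173 bp, 137 bp from the pooled summit, while in replicates 1 and 2 it was 3 and 13 bp away. Over all 195 reproducible peaks the median shift was 8, 10 and 25 bp in replicates 1, 2 and 3, and 4, 17 and 13 peaks had a shift above 100 bp. The fragmentation and source labels also differ between replicates 1 and 2 and replicate 3, and whether they bear on this order was not tested.

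The letters at the pair differed too. The region 673 bp upstream had a CACGTG 4 bp from its summit and a CACATG, whereas the peak 310 bp upstream had no CACGTG within 100 bp but a CACATG. In replicate 3 the summit near 673 bp was 2 bp from that CACGTG. The GC content within 100 bp of the summit was 54.2% at the peak 310 bp upstream, the highest of the 26 regions, and 46.3% at the region 673 bp upstream. The first summit lay within the annotated non-coding RNA gene C49F8.5 (WBGene00195616), at X, 13351110 to 13351321, and the second within C49F8.8 (WBGene00196959), at X, 13351389 to 13351569. A further one, C49F8.9 (WBGene00197515), was annotated at 13351505 to 13351635. Of the whole series, 14 regions of the pooled list outside the reproducible list matched one of the first 100 regions of replicate 3, and 4 and 9 did so for replicates 1 and 2.

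**Figure D3:**
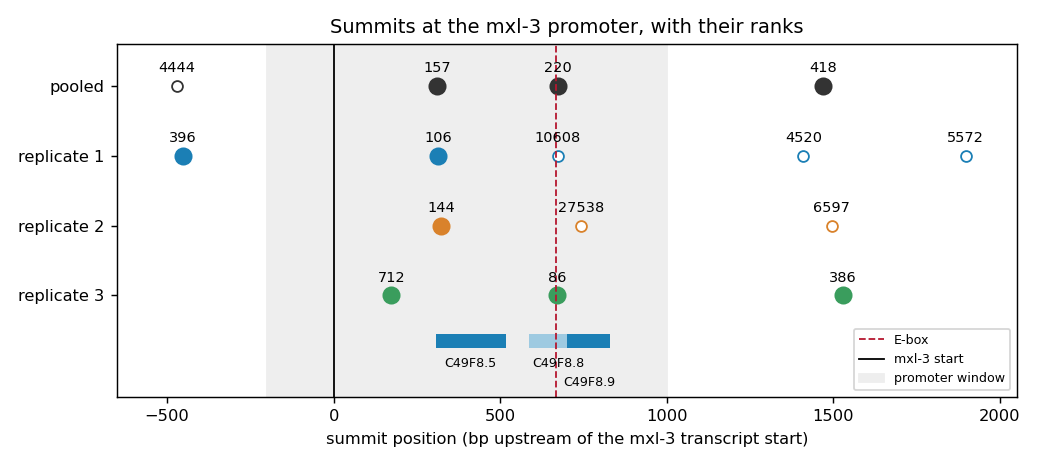
Summits of the pooled list and each replicate (rows) by distance upstream of the mxl-3 start in bp, with the rank of each printed above it; filled circles rank within the first 1000 of their list. Replicates 1 and 2 have ranks 106 and 144 near 310 bp, and replicate 3 has rank 86 near 673 bp, next to the E-box (red dashed line); bars below are non-coding RNA genes, dark on the plus strand and light on the minus strand.

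The lowest of the 5 peaks lay 5793 bp upstream, at X, 13356455 to 13356738, and ranked 169 with a signal of 28.1. It ranked 167 in replicate 1 with a signal of 14.0 and 123 in replicate 3 with a signal of 13.7. Replicate 2 had no summit within 200 bp. Its nearest was 411 bp away at rank 8464, with a signal of 4.52. The piRNA gene 21ur-14870 (WBGene00166775), at X, 13356563 to 13356583, was 14 bp from the pooled summit.

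None of the CANNTG hexamers lay within 100 bp of that summit, but it was flanked by 2 copies of CACGTG. They were 172 bp away on the side of mxl-3 and 192 bp away on the other side, and are shown because their place beside the summit differed from that at the other sites.
Towards mxl-3, chrX:13356403-13356442: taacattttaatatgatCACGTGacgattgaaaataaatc
Away from mxl-3, chrX:13356772-13356811: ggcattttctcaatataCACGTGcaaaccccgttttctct
The summit of replicate 1 lay between them, 164 and 200 bp away. That of replicate 3 was 140 bp farther from mxl-3 than the pooled one and only 52 bp from the outer copy. The letters under the summit thus differed between replicate 3 and the pooled list.

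The 195 reproducible peaks were the first 195 pooled regions by signal. The other 21 pooled regions of the window were therefore lower than the 5 peaks by construction. After the region 673 bp upstream, the next were 1469 and 4584 bp upstream, at ranks 418 and 561, neither with CACGTG. The region 1469 bp upstream ranked 4520, 6597 and 386 in replicates 1, 2 and 3, so it too was highest in replicate 3. The region 4584 bp upstream ranked 446 in replicate 1 and 1080 in replicate 3 and had no summit within 200 bp in replicate 2. The region 6749 bp upstream, at pooled rank 2466, ranked 1971, 943 and 511, with summits 200, 25 and 193 bp from the pooled one.

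Within the body of mxl-3 the pooled list had 2 regions, in an intron and in the 3′ UTR, at ranks 4444 and 4209. In replicate 1 a region in that intron ranked 396. The gene ptr-24 held 4 pooled regions, at ranks 11752 to 27850. C49F8.15 held 1, in a coding exon at rank 770, and the pooled region 116 bp upstream of its start ranked 24529. The body of C49F8.1 held none. Outside the upstream gap, replicate 1 had 2 regions among its first 1000, those in the mxl-3 intron and the C49F8.15 exon, and replicates 2 and 3 had 0.

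Recovery was counted as a replicate summit within 200 bp. Of the 5 peaks, 4 were found in all 3 replicates and 1 in 2 of them. Over all reproducible peaks 86.7% were found in all 3, so the count at mxl-3 was close to the rest of the list. The same 4 also ranked among the first 1000 regions of each replicate, which 57.4% of all reproducible peaks did. Of the other pooled regions of the window, 3 were found in all 3 replicates, 8 in 2, 9 in 1 and 1 in none. The reproducible list was derived from these replicate lists, so recovery is no independent support.

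Within 100 bp of the summit, 3 of the 5 peaks and 8 of the 26 pooled regions had a CACGTG. The share was 59.5% of all reproducible peaks and 4.67% of all pooled regions. The 3 peaks with it were the 3 of highest signal. The other hexamers of the form CANNTG were read on both strands. CAATTG was found in 2 of the 5 peaks, and in 9.23% of all reproducible peaks and 9.58% of all pooled regions. CAACTG, at the peak 2852 bp upstream, was in 12.8% of all reproducible peaks and 11.7% of pooled regions. CACATG, at the peak 310 bp upstream, was in 30.8% of all reproducible peaks and 7.97% of pooled regions. CATATG, at the peak 7983 bp upstream, was in 4.62% of all reproducible peaks and 4.24% of pooled regions. The GC content of the 5 peaks was 39.3% to 54.2% with a median of 46.3%, and that of the other 21 regions was 26.4% to 47.3% with a median of 38.3%. The medians over all reproducible peaks and all pooled regions were 44.8% and 36.8%.

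The window held 14 copies of CACGTG in all, 8 of them in the upstream gap. On the 6 chromosomes there were 17729 copies, or 1 per 5656 bases. Of the 14 copies, 4 lay within 100 bp of a reproducible summit, 5 near another pooled summit and 5 near no pooled summit. All 4 were in the upstream gap. Of all copies on the 6 chromosomes, 0.795% lay within 100 bp of a reproducible summit. The copy in the mxl-3 3′ UTR was 17 bp from a pooled summit at rank 4209 and the copy between mxl-3 and ptr-24 was 51 bp from one at rank 8232. A CACGTG was thus present at high and at low regions of the locus.

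The bases next to the hexamer were read after these sites had been seen. TTCACGTGC, which contains the hexamer and was read on both strands, occurred 4 times in the window. These were the copy under the region 673 bp upstream and 1 copy under each of the 3 high distal peaks. The outer copy beside the peak 5793 bp upstream and the other copy at 7983 bp did not read so. On the 6 chromosomes 2.62% of the copies of CACGTG did, and 14.2% of those within 100 bp of a reproducible summit. For the shorter TCACGTGC the shares were 6.62% and 21.3%. Of the 465 copies of TTCACGTGC on the 6 chromosomes, only 20 lay within 100 bp of a reproducible summit.

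**Figure D4:**
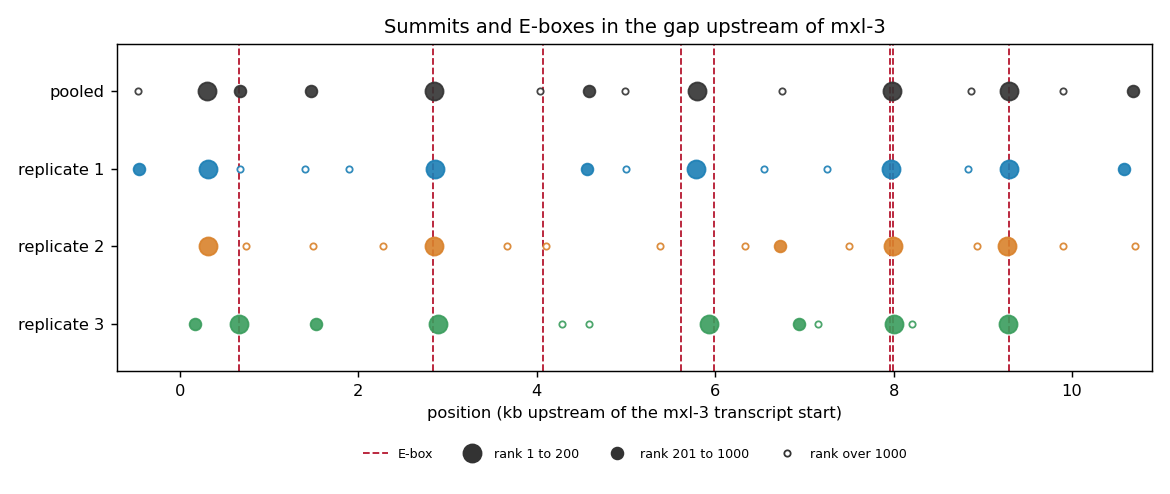
Summits in the pooled list and each replicate (rows) along the gap upstream of mxl-3 in kb, with large circles for ranks 1 to 200, and copies of the E-box as red dashed lines. The sites 2852, 7983 and 9291 bp upstream have an E-box within 53 bp of the summit in every list, and the outer E-box near 6 kb has a summit within 100 bp in replicate 3 only.

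The 5 peaks shared 1 gap between genes. Of 17073 gaps between neighbouring protein-coding genes, 98 held at least 1 reproducible peak and 2 held 5. The median gap was 908 bp, and 3.51% were as long as that of mxl-3 or longer. Among these 599 long gaps, 0.167% held as many peaks, which was the mxl-3 gap alone. The other gap with 5 lay between R03E9.2 and mdl-1 on the same chromosome and was 9049 bp long. The gap from CC8.2 to fmil-1 on chromosome IV, of 10189 bp, followed with 4; these gaps were named after their counts were seen. In consecutive windows of 30 kb along each chromosome, 0.0598% of 3346 held 5 or more reproducible peaks. These were the one that holds the mxl-3 start, at X, 13350001 to 13380000, with 5, and the one at mdl-1, with 9. That window of mxl-3 had 23 pooled regions, and the window described here, which was placed around the locus, had 26. In the consecutive windows the median was 9, and 0.0598% held 26 or more, at mdl-1 and on chromosome III, with 29 and 30. The window on chromosome III, at 7350001 to 7380000, contains the gap from mml-1 to T20B12.7. The transgene also makes MML-1, and whether its sequence adds to the regions at mml-1 was not tested. The locus was singled out for its sites, so these values are a description.

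**Figure D5:**
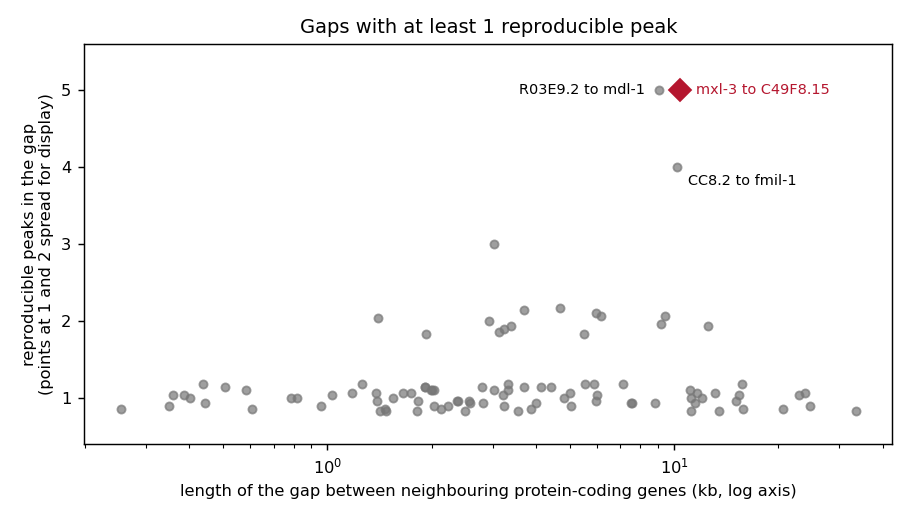
Number of reproducible peaks against length in kb (log axis) for the 98 gaps between protein-coding genes that hold at least 1. The gap from mxl-3 to C49F8.15 (red diamond) and the gap from R03E9.2 to mdl-1 hold 5 each, and the gap from CC8.2 to fmil-1 holds 4.

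Genes were then ordered by how closely they shared the layout of mxl-3, a reproducible peak in the promoter window and another outside any promoter window nearest to the same gene. Of 96 genes with a promoter peak, 19 had both. In this count mxl-3 had 1 promoter and 2 distal peaks, since the peaks 7983 and 9291 bp upstream were nearest to C49F8.15. The count used pooled summits, and the peak 5793 bp upstream was almost as near to the C49F8.15 start, at 5989 bp. The gene with most was mdl-1 (WBGene00003163), whose product is the worm relative of the Mad proteins, with 2 promoter and 6 distal peaks. H18N23.2 had 4 peaks, and T07E3.4, E01G4.3, T09F3.2 and pkg-2, a gene of the cGMP-dependent protein kinase family, had 3 each. A further 12 genes had 2 each, mml-1 among them. The trehalase gene tre-2 had the best-ranked peak of these 12. The best promoter rank was 157 at mxl-3, 2 at mdl-1, 20 at H18N23.2 and 92 at pkg-2. The best distal peak ranked above the best promoter peak at 9 of the 19 genes, mxl-3 included. At mxl-3 and at T09F3.2 the best distal peak ranked above the best promoter peak, at 32 and 62 against 157 and 145, and at E01G4.3 it did so by 15 against 26. At mdl-1, H18N23.2, T07E3.4, pkg-2 and tre-2 the promoter peak ranked higher.

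In the worm network of Mondo and Max factors, 5 reproducible peaks lay within 10 kb of the mxl-3 start, 10 within 10 kb of an mdl-1 start and 2 within 10 kb of an mml-1 start. mxl-1 and mxl-2, the other Max-like genes, had 0, and their best pooled ranks within 5 kb were 10425 and 13798. Over all 19985 protein-coding genes, 2.97% had a reproducible summit within 10 kb. Of the peaks so counted, 3 of 5 at mxl-3, 8 of 10 at mdl-1 and 1 of 2 at mml-1 had CACGTG. Whether the transgene adds to the count at mml-1 was not tested.

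The genes of the fasting lipase pathway in which MXL-3 is known to act had 0 reproducible peaks within 10 kb, for all of hlh-30 and the lipase genes lipl-1 to lipl-5. The highest pooled region within 5 kb of any of them was in the hlh-30 promoter window, at rank 432 with a signal of 18.7. The best within 5 kb of lipl-1, lipl-2, lipl-3, lipl-4 and lipl-5 ranked 2888, 1373, 1954, 8806 and 20121. None of these 6 regions had CACGTG within 100 bp of the summit. Against 2.97% of all genes, 0 of 6 is near the background, and nothing about these genes is read from it.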

How the data were processed

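Regions came from narrowPeak lists that the authors deposited for each replicate, for the 3 replicates pooled, and as a reproducible list made from them by the irreproducible discovery rate. In each list the authors deposited a signal value, a −log10 q-value and a summit per region. The pooled list was called on the 3 replicates against a control library, per the file records. The sources used here name no aligner, peak caller or rate threshold. Read totals were not analysed here, and depth and its precision are unknown.

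For the ce11 lists, genome letters came from WBcel235 and genes from Ensembl release 115, and every region fits within its chromosome. Coordinates are 1-based. Regions were ranked by signal in Python 3.11.15 (numpy 2.4.6, SciPy 1.17.1, matplotlib 3.10.9). Replicate summits within 200 bp were matched, taking the highest. CACGTG and the other CANNTG hexamers were searched on both strands within 100 bp of the summit. A promoter window covered 1000 bp before and 200 bp past each protein-coding transcript start. The hexamer search and matching were checked on planted data.

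All comparisons are descriptive. The sites and gene lists were chosen with earlier results of these data known. Named genes are mxl-3, its neighbours, non-coding genes within 1 kb of a peak, both gene lists, and the first 8 of the genes with promoter and distal peaks. Gaps and 30 kb windows use all genes and peaks. Alternatives varied the build, peak set, windows, matching and replicates.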

Additional observations from a re-analysis of the deposited data

How the results depend on the processing

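Of 24 alternatives over the 5 counts for mxl-3, 21 gave values within 1.5 times the main one and 3 did not. The window held 5 reproducible peaks, 3 among the reproducible peaks at or above that list's median signal and 9 with the 1000 pooled regions of highest signal, which add regions by construction. The promoter window held 1 reproducible peak and 2 of the first 1000 pooled regions. In the ce10 lists, where the locus was found by the spacing of its summits within 30 bp and no coordinate was carried over, 5 peaks were again reproducible, at ranks 21, 32, 45, 156 and 175, and the region 673 bp upstream was again outside the list, at rank 228. Leaving out replicate 1, 2 or 3 gave 4 to 5 peaks found in the other replicates and 4 to 5 in their first 1000, the higher value in both cases without replicate 2. By construction, leaving out a replicate can keep or raise these counts but cannot lower them, so these alternatives do not show how firm they are. With summits matched within 100 bp, 3 peaks rather than 4 were found in all 3 replicates, and 3 rather than 4 in their first 1000. A stricter rank limit also lowered the latter count to 3. The peak lost was the promoter peak 310 bp upstream, whose replicate 3 summit was 137 bp away at rank 712. Wider matching gave 5 found in all 3 replicates and 4 in their first 1000. The promoter peak was thus less firmly recovered than the 3 high distal peaks. The count with CACGTG was 3 to 4 over the alternatives. Depth is unknown, and low ranks within a single replicate cannot be weighed by reads. No paired analysis was possible because there is 1 group and no test.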
